A study of Rattus norvegicus with 39 samples.

Results

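The cerebral cortex of 28-month-old male BN rats that had fed ad libitum throughout (28 m AL) was compared with that of rats moved from ad libitum feeding to caloric restriction at 12 months of age (28 m AL>CR). The libraries were chosen by their diet labels alone: 3 of 28 m AL (pools 7, 8 and 9) and 3 of 28 m AL>CR (pools 19, 20 and 21), which is 6 of the 39 libraries of the series. Each library held the RNA of 2 rats mixed before sequencing, so a group stood for 6 rats and a p-value measures the spread between 3 pools. The rats of both groups were of the BN/SsNOlaHSD strain, without transgene or drug, and were housed singly. The diets began at 2 months of age, and both groups ate ad libitum until 12 months. From then to 28 months the AL>CR rats received a daily ration of 55% of the food intake of the controls. The 28 m AL rats belong to an ageing cohort that the authors had sequenced once before, on an older instrument, and sequenced again together with the other groups. Whether the RNA of both groups was prepared on the same days is not given in the sources used here.

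Caloric restriction, a lowered food intake without malnutrition, lengthens life in many laboratory rodents. It lowers insulin, IGF1 and leptin in the blood, raises corticosterone, and shifts the use of fuel towards fat and ketone bodies. In the brain it has been linked to mitochondrial respiration, protein turnover, defence against oxidants, synaptic signalling and the state of glia. A switch in midlife asks whether restriction that begins in adulthood leaves the ageing cortex different from a cortex that was never restricted.

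The libraries were not alike in quality, and AL pools 7 and 9 stood apart from the other libraries of 28 months. Reads counted on genes numbered 4537079, 3109488 and 3753929 in AL pools 7, 8 and 9 and 4005959, 4876839 and 3288677 in AL>CR pools 19, 20 and 21. The share of reads not aligned was 31.2% ± 3.25 in AL and 40.2% ± 1.40 in AL>CR (SD, n = 3), a difference of 8.93 percentage points (two-sided exact permutation test, p = 0.1, the smallest that 3 pools against 3 can give). The 21 libraries of the other diets at 28 months, AL>CR included, lay between 34.1% and 41.3%, so all 3 AL pools were below them. The AL libraries of 6 and 12 months lay between 29.1% and 36.1%. Libraries of other diets at those ages lay between 39.3% and 43.2%. The share of aligned reads on no gene was 81.8% in AL and 82.0% in AL>CR, a difference of 0.17 percentage points (exact permutation test, p = 0.9) that turned to -0.53 without pool 9 and to -0.15 without pool 21. A cerebellar score was the mean log2(CPM + 1) of 9 genes listed as markers of the cerebellum. It was 7.15, 3.56 and 7.06 in AL pools 7, 8 and 9, against 4.05, 3.46 and 3.48 in AL>CR and 3.18 to 4.78 in those 21 libraries. Pools 7 and 9 therefore held high levels of cerebellar transcripts and pool 8 did not. The 9 genes were not all scarce in the other libraries, with a summed level of 256 to 309 CPM in the AL>CR pools. Markers of cortical neurons were present in all 6 libraries, with Neurod6 (a transcription factor of excitatory neurons) between 30.1 and 68.4 CPM and Nrgn (neurogranin, a postsynaptic calmodulin-binding protein) between 64.7 and 146 CPM. Results are given with pools 7 and 9, and many, though not all, also with the cerebellar score as a covariate or without both pools. Where neither is given, a result is not to be taken as having held in those fits. The fit without both pools leaves AL with pool 8 alone, which is assumed to vary like the other groups in a fit of all 13 groups. The fit with the covariate also uses all 13 groups, the AL libraries of younger ages among them.

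**Figure D1:**
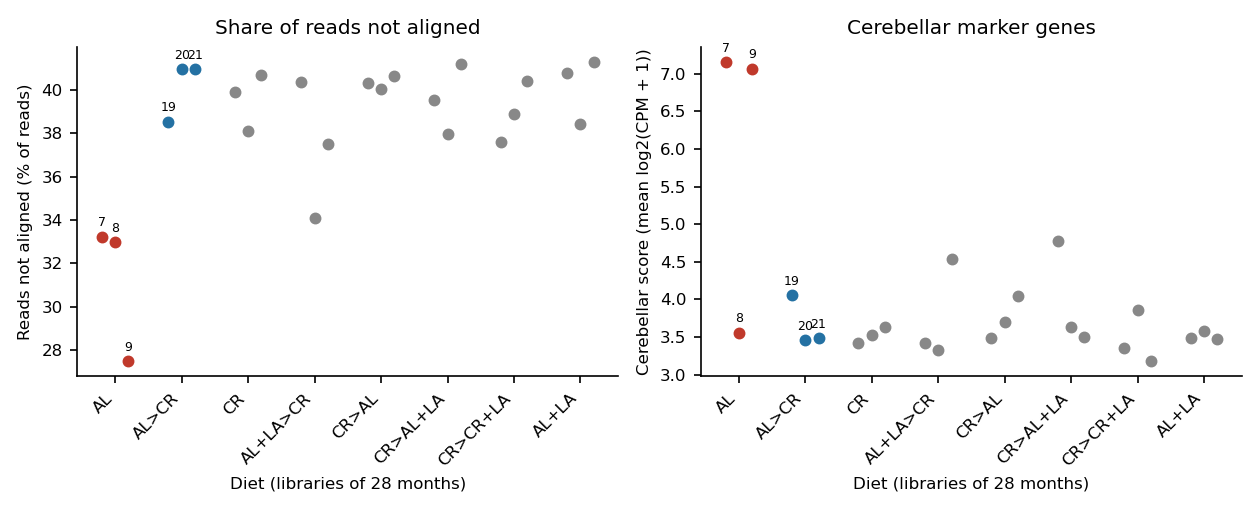
Share of reads not aligned (left, % of reads) and cerebellar score (right, mean log2(CPM + 1)) in the libraries of 28 months, 1 point per pool, with AL in red, AL>CR in blue and the pool numbers beside them. The 3 AL pools had fewer unaligned reads than every other pool shown, and pools 7 and 9 had cerebellar scores of 7.15 and 7.06, above all others.

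Of 17230 genes tested with edgeR's quasi-likelihood test, 836 differed between AL>CR and AL at a Benjamini-Hochberg adjusted p under 0.05, 4.85% of the genes. In AL>CR 498 genes (2.89%) were higher and 338 (1.96%) lower, with median log2 fold changes of 0.88 and -0.83 among them. At an unadjusted p under 0.05 there were 3009 genes (17.5%). The pools of both groups did not overlap in 759 of the 836 genes, and over all genes tested they did not overlap in 21.6%. A log2 fold change above 1 was reached by 190 of the higher genes and one below -1 by 124 of the lower genes. With the cerebellar score as a covariate 429 genes passed (318 higher, 111 lower, 2.49% of the genes), and without pools 7 and 9 88 genes passed (60 higher, 28 lower, 0.511%). Of the 836 genes, 324 also passed with the covariate and 74 also passed without pools 7 and 9, each in its first direction. The 498 higher genes kept their sign in both fits, whether or not they passed, while the 338 lower genes kept it in 319 with the covariate and in 307 without the pools. Both fits share libraries with the fit that chose these genes. Leaving out pool 9 gave 403 genes, pool 19 461, pool 20 372 and pool 21 448, whereas leaving out pool 8 gave 1415.

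**Figure D2:**
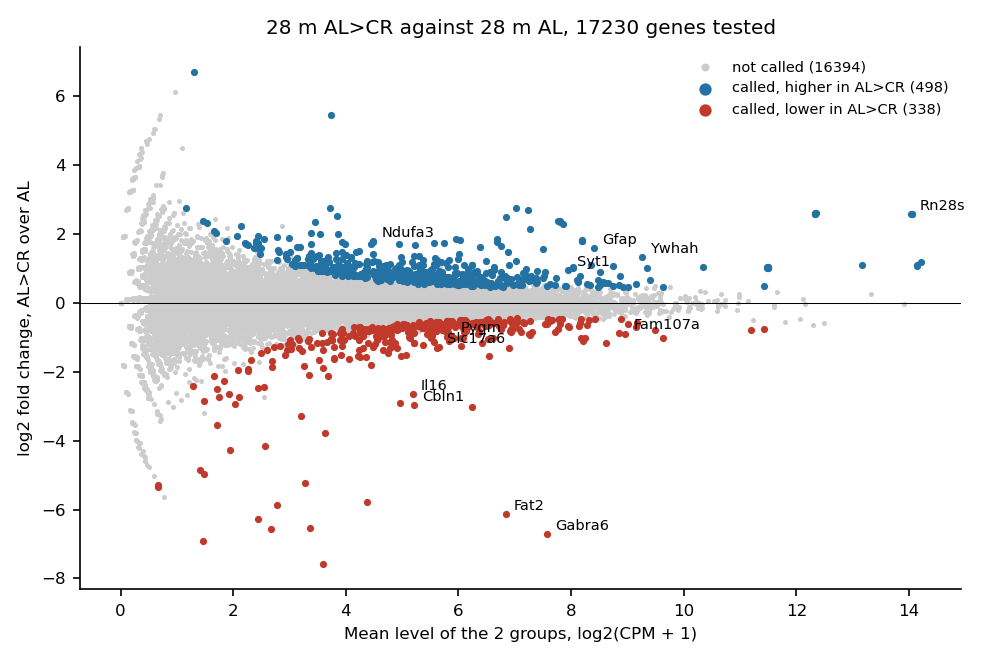
log2 fold change of AL>CR over AL against the mean level of both groups (log2(CPM + 1)) for 17230 genes, with the 498 genes called higher in blue and the 338 called lower in red. Rn28s lay at the highest level among the labelled genes, and the cerebellar genes Fat2 and Gabra6 lay near the bottom of the plot, at -6.12 and -6.72.

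**Figure D3:**
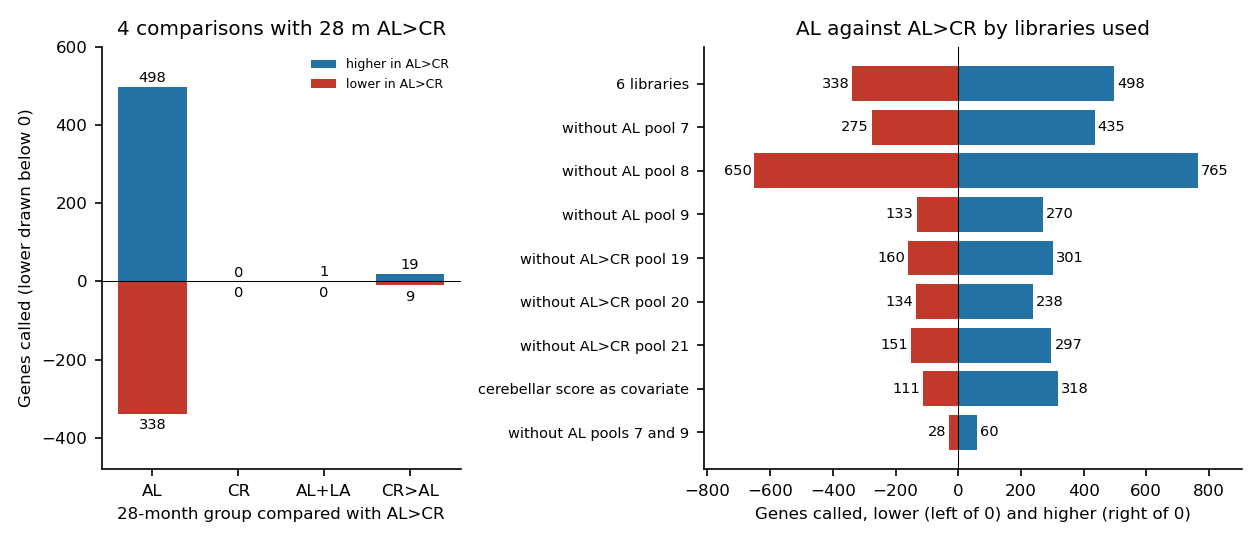
Genes called (adjusted p under 0.05) as bars, higher in AL>CR in blue and lower in red, for AL>CR against 4 groups of 28 months (left) and for AL>CR against AL with pools left out or the covariate added (right). The bars against AL reach 498 and 338 genes, those against CR are at 0, and without AL pools 7 and 9 the bars shrink to 60 and 28.

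The counts per gene below are CPM scaled by TMM, given for pools 7, 8 and 9 of AL and then for pools 19, 20 and 21 of AL>CR, and a fold change is that of AL>CR over AL on the log2 scale ± SE. CPM is not divided by gene length, so levels are compared between pools of the same gene only. Gene names were at hand for 1666 of the genes tested, most of them genes that the study had listed as changed in some comparison of these libraries. Of these 1666, 38.8% were called (22.6% higher, 16.2% lower), and this share stands beside the 4.85% of all genes wherever members of a list are counted. With the covariate 18.4% of the named genes passed (13.6% higher, 4.8% lower), and without pools 7 and 9 3.72% (2.58% higher, 1.14% lower). Over all genes those shares were 1.85% higher and 0.644% lower with the covariate, and 0.348% higher and 0.163% lower without the pools. The pools did not overlap in 71.8% of the named genes. The median log2 fold change of the named genes was 0.33, against -0.0059 over all genes tested.

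Among named genes without overlap between the pools, the 12 higher genes with the smallest adjusted p included the following. Rn28s (ENSRNOG00000050614), the RNA of the large ribosomal subunit that depletion leaves behind in part, was at 5596, 6075 and 2928 CPM in AL and 26300, 32560 and 28020 CPM in AL>CR. The lowest AL>CR pool had over 4 times the level of the highest AL pool, a log2 fold change of 2.57 ± 0.20 (adjusted p = 7.61e-08). Without pools 7 and 9 it was 2.25 (adjusted p = 0.277). Rn28s was left out of library sizes in an alternative that gave 835 calls. Gfap (ENSRNOG00000002919), the intermediate filament protein of astrocytes, was at 140.4, 203 and 171 CPM in AL and 534, 522 and 469 CPM in AL>CR. The lowest AL>CR pool had over 2 times the level of the highest AL pool, and the log2 fold change was 1.57 ± 0.14 (adjusted p = 6.16e-07), or 1.32 (adjusted p = 0.0115) without pools 7 and 9. In bulk tissue, more cells of a type and more RNA per cell cannot be told apart. Ywhah (ENSRNOG00000026119), the eta isoform of the 14-3-3 adaptor proteins, was at 336, 349.8 and 360.0 CPM in AL and 898, 803 and 924 CPM in AL>CR. Its AL pools lay close together far below the AL>CR pools, with a log2 fold change of 1.33 ± 0.12 (adjusted p = 8.46e-07), or 1.32 (adjusted p = 0.00222) without pools 7 and 9.

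Pcp4 (ENSRNOG00000001628), a regulator of calmodulin found in Purkinje cells and also in deep-layer cortical neurons, was at 29.8, 46.98 and 45.4 CPM in AL and 122, 112 and 140.1 CPM in AL>CR. Its rise was 1.62 ± 0.17 (adjusted p = 3.88e-06), and without pools 7 and 9, which leaves 1 AL pool, it was 1.41. Dbndd2 (ENSRNOG00000014571), a binding partner of casein kinase 1, was at 31.2, 35.96 and 37.7 CPM in AL and 95.9, 97.2 and 83.5 CPM in AL>CR, a log2 fold change of 1.41 ± 0.15 (adjusted p = 4.48e-06) that stayed past the threshold without pools 7 and 9, at 1.36 (adjusted p = 0.0115). Tmsb10 (ENSRNOG00000042499), which binds actin monomers, was at 17.8, 24.4 and 22.9 CPM in AL and 59.5, 65.5 and 89.9 CPM in AL>CR. The 3 AL>CR pools were all above the AL pools, by 1.73 ± 0.18 (adjusted p = 4.81e-06), and by 1.55 (adjusted p = 0.0179) without pools 7 and 9. The alpha globins Hba2 (ENSRNOG00000047321) and Hba-a2 (ENSRNOG00000029886), parts of haemoglobin in red blood cells, also rose. Hba2 was at 19.4, 27.3 and 27.1 CPM in AL and 76.2, 87.95 and 79.3 CPM in AL>CR (log2 fold change 1.73 ± 0.16 (adjusted p = 9.4e-07)). Hba-a2 was at 57.8, 52.2 and 77.1 CPM in AL and 159, 184 and 170.1 CPM in AL>CR (log2 fold change 1.46 ± 0.15 (adjusted p = 4e-06)). Without pools 7 and 9 neither globin passed, with adjusted p of 0.115 and 0.0534. All 12 of the highest-ranked higher genes, the ribosomal protein genes Rpl35, Rpl8, Rps29 and Rps26 among them, stayed past the threshold when each of the 6 pools was left out in turn.

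The lower genes with the smallest adjusted p had varied functions. Slc17a6 (ENSRNOG00000016147), the vesicular glutamate transporter VGLUT2, which is abundant in thalamic neurons, was at 54.9, 79.2 and 75 CPM in AL and 30.9, 23.4 and 31.7 CPM in AL>CR. Every AL pool was above every AL>CR pool, pool 8 included, with a log2 fold change of -1.28 ± 0.17 (adjusted p = 0.000133). Fam107a (ENSRNOG00000033261), a stress-responsive actin-bundling protein, was at 566, 683 and 699.6 CPM in AL and 359, 341 and 345 CPM in AL>CR. Its log2 fold change of -0.90 ± 0.13 (adjusted p = 0.000208) also passed without pools 7 and 9, at -0.97 (adjusted p = 0.0435), alone among the 12 lower genes of smallest adjusted p. Pygm (ENSRNOG00000021090), the muscle isoform of glycogen phosphorylase, which astrocytes use to break down glycogen, was at 73.7, 70.2 and 87.5 CPM in AL and 39.5, 40.8 and 36.5 CPM in AL>CR. Its pools did not overlap, the log2 fold change was -0.98 ± 0.15 (adjusted p = 0.000315), and with the cerebellar score as a covariate it was -1.03 (adjusted p = 0.00086).

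Kcnj16 (ENSRNOG00000004713), an inwardly rectifying potassium channel, was at 39.6, 37.4 and 41.2 CPM in AL and 17.97, 13.9 and 18.2 CPM in AL>CR, a log2 fold change of -1.25. Ret (ENSRNOG00000014751), the receptor tyrosine kinase for GDNF family ligands, was at 15.7, 20.9 and 21.5 CPM in AL and 6.07, 5.29 and 7.67 CPM in AL>CR, a log2 fold change of -1.62. In both genes pool 8 lay with pools 7 and 9, above the AL>CR pools. Il16 (ENSRNOG00000011680), which encodes a cytokine precursor with a neuronal form, was at 79.6, 15.4 and 88.2 CPM in AL and 9.87, 10.1 and 9.27 CPM in AL>CR. Its log2 fold change of -2.65 ± 0.39 (adjusted p = 0.000266) rested on pools 7 and 9, as pool 8 lay near the AL>CR pools, and without them it was -0.65 (adjusted p = 0.842). Ank1 (ENSRNOG00000018241), an ankyrin that ties membrane proteins to spectrin, was at 49.4, 27.3 and 68.99 CPM in AL and 16.96, 17.2 and 16.3 CPM in AL>CR. In this gene too pool 8 was the lowest AL pool, and the log2 fold change was -1.53, with an adjusted p of 0.69 without pools 7 and 9. Soga1 (ENSRNOG00000006309) and Trpm3 (ENSRNOG00000027770), the latter a calcium-permeable channel, had log2 fold changes of -1.18 and -1.04, again without overlap. Each of the 12 lower genes stayed past the threshold when any 1 pool was left out, but with the covariate only 4 did, Fam107a and Pygm among them.

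The genes of the respiratory chain, which moves electrons from NADH and succinate to oxygen and drives ATP synthesis in mitochondria, were higher in AL>CR. Of 42 nuclear genes of complexes I to IV and ATP synthase with a name, 26 rose and 0 fell, 41 had a log2 fold change above 0, and the median was 0.65. The summed level of the 42 genes was 2524, 2219 and 2287 CPM in the AL pools and 3358, 3654 and 3882 CPM in the AL>CR pools, with no overlap. With the cerebellar score as a covariate 24 of the 42 rose, and without pools 7 and 9 6 rose, with 41 above 0 and a median of 0.72. Leaving out pool 21 gave 16, the fewest, and leaving out pool 7 or pool 8 gave 28, the most. The study had selected most named genes from these libraries, so the counts are not independent evidence of a direction.

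Complex I, the NADH dehydrogenase, had 11 higher and 0 lower of 20 genes (median 0.62). Ndufa3 (ENSRNOG00000014224), an accessory subunit, was at 8.57, 8.41 and 11.8 CPM in AL and 29.4, 32.4 and 38.1 CPM in AL>CR. The AL>CR pools all lay far above the AL pools, with a log2 fold change of 1.78 ± 0.21 (adjusted p = 1.81e-05), and of 1.97 (adjusted p = 0.0325) without pools 7 and 9. Ndufab1, the acyl carrier protein that complex I shares with fatty acid synthesis in mitochondria, was at 26.1, 23.5 and 27.6 CPM in AL and 55.4, 54.4 and 56.3 CPM in AL>CR (log2 fold change 1.10 ± 0.15 (adjusted p = 0.000173)). Ndufb3 and Ndufa1, further accessory subunits, rose by 0.97 and 1.08. In all of these the pools did not overlap. The count for complex I was 8 with the covariate, 1 without pools 7 and 9, and 7 to 14 when single pools were left out, with 7 without pool 21.

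Complexes II and III, which pass electrons from succinate and ubiquinol on to cytochrome c, had 4 higher and 0 lower of 7 genes (median 0.55, 5 with the covariate). Both identifiers that bear the name Uqcrb, a subunit of complex III, rose. ENSRNOG00000024967 was at 44.9, 25.5 and 38.2 CPM in AL and 87.8, 77.8 and 99.8 CPM in AL>CR (log2 fold change 1.27 ± 0.17 (adjusted p = 0.000133)), and ENSRNOG00000032204 was at 30.6, 29.3 and 22.2 CPM in AL and 68.3, 57.1 and 75.5 CPM in AL>CR (log2 fold change 1.29 ± 0.17 (adjusted p = 7.65e-05)). Both also passed without pools 7 and 9, with adjusted p of 0.002 and 0.0325. Genes that share a name may be near-identical copies, and since reads that map to several places were not counted, their levels are uncertain. Uqcr11 was at 72.8, 63.8 and 60.6 CPM in AL and 109, 122 and 134 CPM in AL>CR (log2 fold change 0.89 ± 0.14 (adjusted p = 0.000525)). Uqcrq rose by 0.55. Sdhb, a subunit of succinate dehydrogenase, was at 80.6, 66.7 and 109 CPM in AL and 118, 126 and 123 CPM in AL>CR, without overlap, but did not pass (adjusted p = 0.0611). The call of Uqcrq was lost without pool 9, 19, 20 or 21 (adjusted p 0.061 to 0.206).

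Cytochrome c oxidase, complex IV, had 7 higher and 0 lower of 9 nuclear genes (median 0.71), 7 with the covariate and 0 without pools 7 and 9. Cox6a1 was at 136, 127 and 126 CPM in AL and 213, 244 and 258 CPM in AL>CR. All 3 AL>CR pools were above the AL pools, by 0.88 ± 0.13 (adjusted p = 0.000306). Cox5b was at 96.7, 96.6 and 118 CPM in AL and 157, 207 and 190.0 CPM in AL>CR, Cox8a at 47.3, 50.8 and 34.3 CPM in AL and 81.2, 82.9 and 74.5 CPM in AL>CR and Cox6b1 at 8.37, 7.83 and 9.49 CPM in AL and 18.98, 16.97 and 19.2 CPM in AL>CR, again without overlap, and they rose by 0.84, 0.86 and 1.09. ATP synthase had 4 higher and 0 lower of 6 genes (median 0.63), 4 with the covariate, 2 without pools 7 and 9, and 1 to 4 when single pools were left out, with 1 without pool 21. Atp5i was at 22.6, 14.5 and 27.6 CPM in AL and 45.8, 53.8 and 66.5 CPM in AL>CR and rose by 1.34 ± 0.20 (adjusted p = 0.00031), or by 1.93 (adjusted p = 0.0332) without pools 7 and 9. Atp5o rose by 0.72. Atp5j2 rose by 0.75. Atpif1, the natural inhibitor of ATP synthase, was at 70.2, 51.3 and 76.4 CPM in AL and 89.8, 92.4 and 109 CPM in AL>CR and rose by 0.55 ± 0.15 (adjusted p = 0.0396). The call of Atp5o was lost without pool 9 or 21 (adjusted p 0.0711 to 0.0925), and that of Atp5j2 without pool 9, 20 or 21 (adjusted p 0.0746 to 0.123). The call of Atpif1 was lost without pool 8, 19, 20 or 21 (adjusted p 0.0694 to 0.211).

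Of 3 named genes that the mitochondrial genome itself encodes, COX2 alone rose. COX2, a core subunit of complex IV, was at 2085, 2189 and 2581 CPM in AL and 3526, 2808 and 3289 CPM in AL>CR, with a log2 fold change of 0.49 ± 0.13 (adjusted p = 0.0359). ND3 was at 408, 369 and 538 CPM in AL and 616, 529.7 and 617 CPM in AL>CR (adjusted p = 0.0914). ATP8 was at 819, 894 and 1821 CPM in AL and 1087, 832 and 1037 CPM in AL>CR (adjusted p = 0.577). In ATP8 AL pool 9 was higher than all other pools, so the groups overlapped. The call of COX2 was lost without pool 7, 19, 20 or 21 (adjusted p 0.0631 to 0.237).

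**Figure D4:**
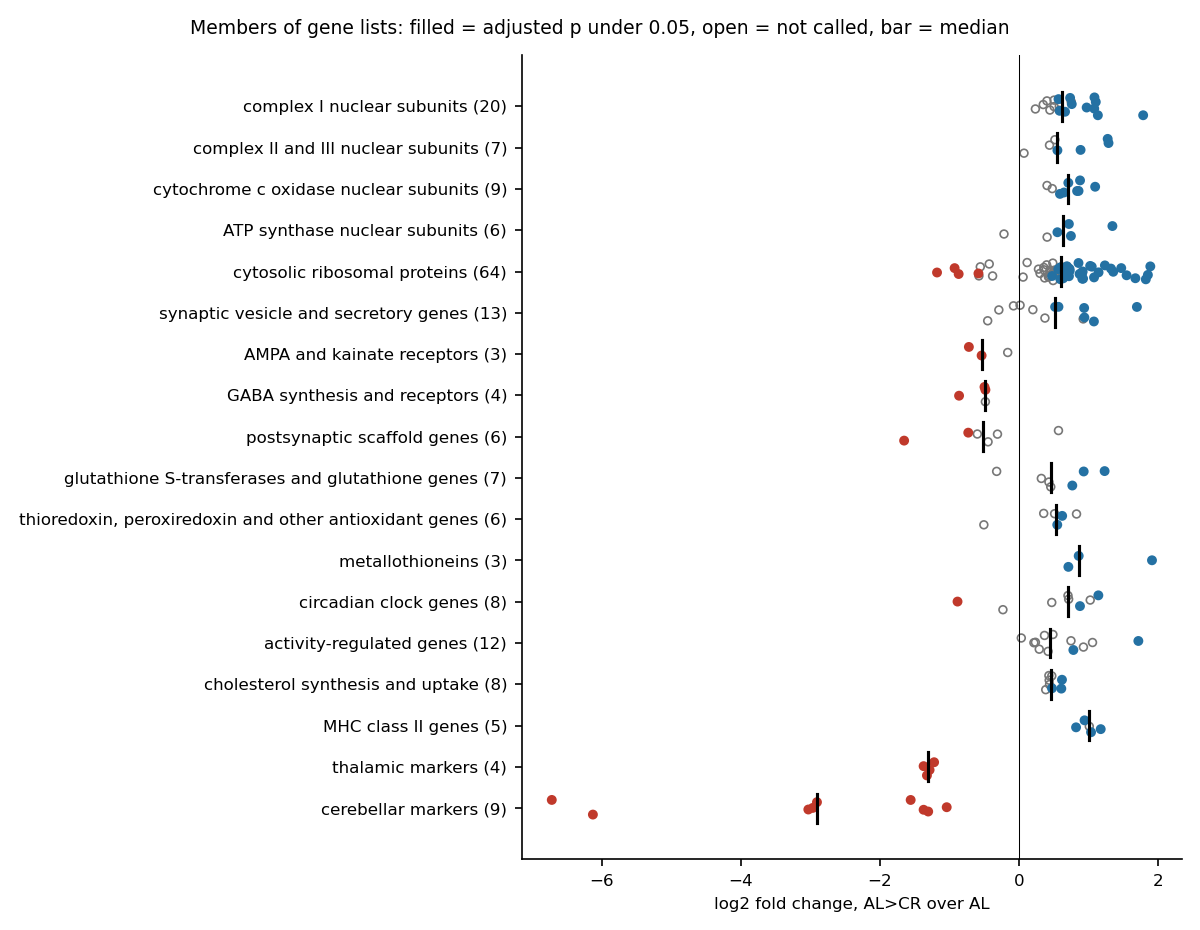
log2 fold change of AL>CR over AL for the members of gene lists, 1 point per identifier, filled where the adjusted p was under 0.05 and open where it was not, with a black line at each list's median and the number of identifiers in brackets. Nuclear respiratory chain genes and most ribosomal protein genes lie right of 0, and the medians of AMPA and kainate receptors, GABA genes and cerebellar and thalamic markers lie left of 0.

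Proteins of the cytosolic ribosome, the machine that translates mRNA, had 32 higher and 4 lower identifiers of 64 (median 0.60), some of which share a gene name. With the covariate 35 rose and 3 fell, and without pools 7 and 9 10 rose and 0 fell. Leaving out single pools gave 18 to 35 higher and 2 to 5 lower. Rpl35 (ENSRNOG00000014272) was at 24.5, 30.7 and 30.3 CPM in AL and 95.4, 97.2 and 109 CPM in AL>CR. Its lowest AL>CR pool had over 3 times the level of its highest AL pool, a log2 fold change of 1.82 ± 0.15 (adjusted p = 1.1e-07), or 1.71 (adjusted p = 0.002) without pools 7 and 9. Rpl8 (ENSRNOG00000032635) was at 27.3, 28.1 and 23.8 CPM in AL and 83.01, 98.3 and 105 CPM in AL>CR and rose by 1.85 ± 0.15 (adjusted p = 1.1e-07), Rps29 (ENSRNOG00000004196) was at 109.8, 66.1 and 99.5 CPM in AL and 251, 245 and 312 CPM in AL>CR and rose by 1.55 ± 0.16 (adjusted p = 4.81e-06), and Rps26 (ENSRNOG00000005517) was at 20.4, 15.1 and 16.7 CPM in AL and 47.1, 54.7 and 66.2 CPM in AL>CR and rose by 1.67 ± 0.18 (adjusted p = 6.6e-06). Many ribosomal protein genes have processed copies in the genome, and reads may be split between copies. The names RPL38, RPL8, RPS29 and RPL37 each stood for several identifiers called higher, so the counts repeat some genes. Rplp1 (ENSRNOG00000013874), a stalk protein, moved the other way. It was at 468, 289.7 and 871 CPM in AL and 219, 226 and 274 CPM in AL>CR, with AL pool 9 highest and a log2 fold change of -1.18 (adjusted p = 0.00501), and without pools 7 and 9 it was -0.28 (adjusted p = 0.856).

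Of the proteasome, which degrades ubiquitin-tagged proteins, 3 genes had a name and 2 rose (median 0.56). Psmd7, of the regulatory particle, was at 46.9, 54.2 and 53.7 CPM in AL and 85.5, 72.5 and 86.99 CPM in AL>CR, a rise of 0.66 ± 0.14 (adjusted p = 0.00775). Psma1, of the core ring, was at 48.97, 37.99 and 40.3 CPM in AL and 56.95, 62.2 and 69.4 CPM in AL>CR, a rise of 0.56 ± 0.15 (adjusted p = 0.035). Their pools did not overlap. Without pools 7 and 9 neither passed, and with the covariate only Psmd7 did (adjusted p = 0.0109). The call of Psmd7 was lost without pool 19 or 21 (adjusted p 0.0534 to 0.0537), and that of Psma1 without pool 9, 19, 20 or 21 (adjusted p 0.0677 to 0.178).

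Of 3 AMPA and kainate receptors for glutamate, the main excitatory transmitter of the cortex, 2 were lower in AL>CR and 0 higher (median -0.54). Grin2c, the NMDA receptor subunit GluN2C, was at 39.4, 36.8 and 53.7 CPM in AL and 24.8, 26.9 and 19.8 CPM in AL>CR, a log2 fold change of -0.85 ± 0.18 (adjusted p = 0.00829). Gria4, an AMPA receptor subunit, was at 362, 186 and 380.3 CPM in AL and 196, 179.6 and 187 CPM in AL>CR. Pool 8 lay among the AL>CR pools, so the groups overlapped, with a log2 fold change of -0.72 ± 0.18 (adjusted p = 0.0236), and 0.0084 (adjusted p = 1) without pools 7 and 9. Grik2, a kainate receptor subunit, was at 207, 134 and 205 CPM in AL and 127, 124 and 126 CPM in AL>CR and fell by 0.54 ± 0.15 on the log2 scale (adjusted p = 0.0421). With the covariate none of Grin2c, Gria4 and Grik2 passed. The call of Grin2c was lost without pool 9 or 21 (adjusted p 0.0567 to 0.0813), and that of Grik2 without any 1 pool other than pool 8 (adjusted p 0.132 to 0.193).

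Genes of the inhibitory transmitter GABA had 0 higher and 3 lower of 4 (median -0.49). Gad1, which makes GABA from glutamate, was at 277, 242 and 283 CPM in AL and 203, 184 and 186 CPM in AL>CR, a log2 fold change of -0.48 ± 0.13 (adjusted p = 0.0288). Gabrd, a receptor subunit outside the synapse, was at 77.7, 45.2 and 90.8 CPM in AL and 33.9, 47.8 and 35.5 CPM in AL>CR, with overlap of pool 8, a log2 fold change of -0.86 ± 0.20 (adjusted p = 0.0143). With the covariate 2 of the 4 were lower, and Gad1 did not pass. Gabra2, a further receptor subunit, was not called in the 6 libraries but passed with the covariate (adjusted p = 0.000849). Without pools 7 and 9 the median of the 4 was -0.40. The call of Gad1 was lost without any 1 pool other than pool 8 (adjusted p 0.0584 to 0.147). The call of Gabrd was lost without pool 9, 19 or 21 (adjusted p 0.0739 to 0.124).

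Among calcium signalling genes 1 rose and 2 fell of 4 (median -0.55). Camk4, a nuclear kinase upstream of CREB, was at 89.2, 65.5 and 105 CPM in AL and 51.9, 50.04 and 41.6 CPM in AL>CR, without overlap, and fell by 0.85 ± 0.17 on the log2 scale (adjusted p = 0.00342). Camk2d was at 261, 168 and 241 CPM in AL and 142, 134 and 158 CPM in AL>CR and fell by 0.63 ± 0.15 on the log2 scale (adjusted p = 0.0169). Calm2, a gene for calmodulin itself, was at 321, 254 and 396 CPM in AL and 499, 428 and 524 CPM in AL>CR and rose by 0.58 ± 0.15 (adjusted p = 0.0227). None of the 4 passed with the covariate or without pools 7 and 9. Of 6 scaffold genes of the postsynaptic density 2 fell and 0 rose (median -0.52). Homer3, one of these scaffolds, was at 20, 11.6 and 16.2 CPM in AL and 5.57, 4.63 and 5.12 CPM in AL>CR, without overlap, and fell by 1.65 ± 0.28 on the log2 scale (adjusted p = 0.000912), but it was -0.77 (adjusted p = 0.348) with the covariate. Shank3 was at 27.1, 41.5 and 30.6 CPM in AL and 25.3, 18.1 and 15.7 CPM in AL>CR and fell by 0.73 ± 0.21 on the log2 scale (adjusted p = 0.0479). With the covariate Shank3 and Shank1 fell, with adjusted p of 0.0422 and 0.0211. The call of Camk2d was lost without pool 7, 9, 19 or 20 (adjusted p 0.0675 to 0.122), and that of Calm2 without pool 19, 20 or 21 (adjusted p 0.0592 to 0.137). The call of Shank3 was lost without pool 8, 9, 20 or 21 (adjusted p 0.0905 to 0.192).

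Genes of synaptic vesicles and of secretion had 6 higher and 0 lower of 13 (median 0.52), 4 higher with the covariate, 0 without pools 7 and 9, and 3 to 8 when single pools were left out. Pcsk1n (ENSRNOG00000007112), an inhibitor of a prohormone convertase, was at 11.8, 17.98 and 12.96 CPM in AL and 43.5, 54.9 and 37.7 CPM in AL>CR. The AL>CR pools were all above the AL pools, by 1.70 ± 0.20 (adjusted p = 2.48e-05), and without pools 7 and 9 the value was 1.34 (adjusted p = 0.0663). Syt1, the calcium sensor for vesicle release, was at 145, 209.7 and 153 CPM in AL and 343, 304 and 326 CPM in AL>CR, a rise of 0.94 ± 0.15 (adjusted p = 0.000451) that passed with the covariate (adjusted p = 0.00543). Rab3b, a vesicle GTPase, was at 19.2, 16.2 and 17.6 CPM in AL and 23.5, 41.9 and 36.1 CPM in AL>CR, a rise of 0.94 ± 0.21 (adjusted p = 0.00952). Stx1a, a SNARE protein of the presynaptic membrane, was at 12.9, 22.3 and 12.04 CPM in AL and 40.5, 31.3 and 25.9 CPM in AL>CR, a rise of 1.08 ± 0.23 (adjusted p = 0.00774). In these 4 genes the groups did not overlap. Napb, which also acts in vesicle fusion, had a log2 fold change of -0.079 and did not pass. A further identifier named Pcsk1n, ENSRNOG00000046021, did not pass either. Its log2 fold change was 0.67 to 1.09 when single pools were left out, and it passed only without pool 8 (adjusted p = 0.0202). The call of Rab3b was lost without pool 20 (adjusted p = 0.121), and that of Stx1a without pool 9 or 19 (adjusted p 0.0605 to 0.0622).

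Glutathione S-transferases couple glutathione to electrophiles and so detoxify them. Of 7 named glutathione genes 3 rose and 0 fell (median 0.46), with 3 under the covariate and 3 when any single pool was left out. Gstp1, the pi class enzyme, was at 22.2, 30.4 and 20.6 CPM in AL and 58.97, 65.7 and 45.1 CPM in AL>CR. The groups did not overlap, and the log2 fold change was 1.23 ± 0.19 (adjusted p = 0.000344). Gstm1, of the mu class, was at 49.6, 55.98 and 58.6 CPM in AL and 105, 109.8 and 96.6 CPM in AL>CR, a rise of 0.93 ± 0.14 (adjusted p = 0.000315) that also passed without pools 7 and 9, at 0.89 (adjusted p = 0.0179). Gsta1, of the alpha class, was at 58.8, 53.4 and 47.9 CPM in AL and 88.3, 98.97 and 84.4 CPM in AL>CR, a rise of 0.77 ± 0.14 (adjusted p = 0.00254). Gstt3, of the theta class, was at 29.2, 32.2 and 34.5 CPM in AL and 40.2, 45.6 and 32.9 CPM in AL>CR, with overlap, and did not pass (adjusted p = 0.34). Gsto1, of the omega class, had a log2 fold change of -0.32 and did not pass either.

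Of 6 thioredoxin, peroxiredoxin and other antioxidant genes 2 rose and 0 fell (median 0.53). Txnrd1, the reductase that recharges thioredoxin, was at 27.6, 31.9 and 28.01 CPM in AL and 44.3, 41.4 and 48.6 CPM in AL>CR, a rise of 0.62 ± 0.16 (adjusted p = 0.0254). Prdx5, a peroxiredoxin, was at 54.3, 58.6 and 50 CPM in AL and 64.3, 92.1 and 81.2 CPM in AL>CR, a rise of 0.55 ± 0.15 (adjusted p = 0.0417). Txndc17 was at 10.6, 11.02 and 6.71 CPM in AL and 14.4, 20.1 and 15.3 CPM in AL>CR, without overlap (adjusted p = 0.062). Txnip, an inhibitor of thioredoxin, was at 36.1, 39.4 and 41.7 CPM in AL and 59.2, 54.2 and 35.2 CPM in AL>CR, with overlap (adjusted p = 0.309). Without pools 7 and 9 none of the 6 passed, and with the covariate Txnrd1 and Sod1 did (adjusted p = 0.041 and 0.0301). The call of Txnrd1 was lost without any 1 pool other than pool 8 (adjusted p 0.067 to 0.129), and that of Prdx5 without pool 7, 9, 20 or 21 (adjusted p 0.0765 to 0.29).

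Metallothioneins are small proteins that bind zinc and copper. Genes of the family such as MT1 and Mt2A are switched on by metals through a metal response element and by glucocorticoids. Whether this holds for Mt3 was not tested. The 3 named genes lie close to each other on chromosome 19 of the GRCr8 assembly (RefSeq), and the 250 bases before each start site are printed because all 3 genes rose together. Capitals mark the letters TGCGCNC or TGCACNC on either strand, the core of the element, of which overlapping copies were counted. The windows are chr19:10832976-10833225 for MT1 (ENSRNOG00000038047), chr19:10838709-10838958 for Mt2A (ENSRNOG00000043098) and chr19:10856081-10856330 for Mt3 (ENSRNOG00000018958), all read on the minus strand, and genes were matched to RefSeq by symbol.
MT1: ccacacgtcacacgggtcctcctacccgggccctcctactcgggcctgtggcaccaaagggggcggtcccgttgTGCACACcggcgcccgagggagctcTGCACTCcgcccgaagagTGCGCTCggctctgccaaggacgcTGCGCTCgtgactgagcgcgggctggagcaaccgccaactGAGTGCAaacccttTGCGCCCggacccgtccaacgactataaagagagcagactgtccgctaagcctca
Mt2A: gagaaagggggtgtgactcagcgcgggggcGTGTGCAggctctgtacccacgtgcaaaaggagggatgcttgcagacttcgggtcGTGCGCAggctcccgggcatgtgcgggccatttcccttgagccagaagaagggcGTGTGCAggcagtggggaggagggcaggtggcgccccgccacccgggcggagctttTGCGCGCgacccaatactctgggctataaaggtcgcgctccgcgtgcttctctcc
Mt3: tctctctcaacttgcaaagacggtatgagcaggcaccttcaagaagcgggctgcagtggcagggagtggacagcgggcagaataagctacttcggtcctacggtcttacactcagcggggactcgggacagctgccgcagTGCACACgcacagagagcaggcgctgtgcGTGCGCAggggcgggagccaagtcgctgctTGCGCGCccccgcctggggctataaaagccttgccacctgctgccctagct
The 3 windows held 6, 4 and 3 matches. Of 33469 rat promoters of the same length, 20.6% held at least 1 match and 1.17% held 3 or more. A match is a description of letters and no measure of binding.

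MT1, an isoform that most tissues can switch on, was at 3.06, 2.03 and 2.08 CPM in AL and 10.9, 6.17 and 10.9 CPM in AL>CR. Its levels were low in every pool, yet all AL>CR pools were above the AL pools, with a log2 fold change of 1.91 ± 0.37 (adjusted p = 0.0031) that passed without any 1 pool. Mt2A was at 15.9, 13.1 and 16.4 CPM in AL and 23.03, 30.2 and 29.4 CPM in AL>CR, a rise of 0.86 ± 0.20 (adjusted p = 0.0119). Mt3, the form found mainly in the brain, was at 75.9, 80.9 and 105 CPM in AL and 123, 159 and 145 CPM in AL>CR, a rise of 0.71 ± 0.15 (adjusted p = 0.00696). With the covariate MT1 alone passed (adjusted p = 0.0498), and without pools 7 and 9 the log2 fold changes were 2.16 (adjusted p = 0.224), 1.08 (adjusted p = 0.464) and 0.81 (adjusted p = 0.4). The call of Mt2A was lost without pool 20 or 21 (adjusted p 0.0591 to 0.0958), and that of Mt3 without pool 20 (adjusted p = 0.0851).

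Of 3 named genes in a list of genes that respond to glucocorticoids, 2 fell and 0 rose (median -0.76). The third, Cdkn1a, did not pass. The metallothionein genes above, of which 3 rose, were not in this list. Hsd11b1, the enzyme that regenerates active glucocorticoid in the cell, was at 101, 65.5 and 87.97 CPM in AL and 43.5, 57.97 and 48.9 CPM in AL>CR. All AL pools were above the AL>CR pools, and the log2 fold change was -0.76 ± 0.16 (adjusted p = 0.00857). Sult1a1, a sulfotransferase, was at 27.3, 35.1 and 30.1 CPM in AL and 11.6, 21.2 and 19.5 CPM in AL>CR, a log2 fold change of -0.81 ± 0.21 (adjusted p = 0.0282). Neither passed with the covariate (adjusted p = 0.0971 and 0.0586) or without pools 7 and 9. The call of Hsd11b1 was lost without pool 19 (adjusted p = 0.0675), and that of Sult1a1 without pool 9, 19 or 21 (adjusted p 0.0552 to 0.182).

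Genes of the circadian clock had 2 higher and 1 lower of 8 (median 0.71), with 1 call under the covariate and 0 without pools 7 and 9. Dbp, a clock output transcription factor, was at 35.5, 35.4 and 30.1 CPM in AL and 83.3, 84.2 and 53.7 CPM in AL>CR. The AL>CR pools were higher without overlap, by 1.14 ± 0.17 (adjusted p = 0.000379), and with the covariate the value was 0.96 (adjusted p = 0.0325). Bhlhe40, a repressor in the clock, was at 52.2, 60.6 and 49.3 CPM in AL and 92.6, 103 and 101 CPM in AL>CR, a rise of 0.88 ± 0.14 (adjusted p = 0.000644). Rora, a nuclear receptor that activates Bmal1 and is abundant in cerebellum and thalamus, was at 42.9, 35.7 and 61.8 CPM in AL and 22.8, 27.3 and 25.9 CPM in AL>CR, a log2 fold change of -0.88 ± 0.19 (adjusted p = 0.00805). The hour of sacrifice of the 2 groups is not given in the sources used here. The call of Rora was lost without pool 9 (adjusted p = 0.0888).

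Genes induced by neuronal activity had 2 higher and 0 lower of 12 (median 0.45), and 0 with the covariate. Arc, which acts in the trafficking of AMPA receptors, was at 143, 122 and 78.9 CPM in AL and 226, 223 and 139 CPM in AL>CR, and Btg2, an early-response gene, was at 13.3, 8.41 and 7.41 CPM in AL and 71.9, 15.2 and 8.96 CPM in AL>CR. Both overlapped between groups, and in Btg2 pool 19 was far above the others. Arc rose by 0.78 ± 0.19 (adjusted p = 0.0204). Btg2 rose by 1.72 ± 0.48 (adjusted p = 0.0399). Egr1, Egr2, Egr3 and Nr4a1, immediate early genes, did not pass, with log2 fold changes of 0.29, 0.49, 0.21 and 0.75. The call of Arc was lost without pool 9, 19 or 20 (adjusted p 0.108 to 0.146), and that of Btg2 without pool 9 or 19 (adjusted p 0.16 to 0.715).

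Few genes of nutrient signalling had a name. Of 4 genes of insulin, IGF and FoxO signalling, none of which passed with the covariate, Pik3r1, the regulatory subunit of PI3-kinase, rose. It was at 49.6, 54.5 and 50.9 CPM in AL and 80.2, 67.01 and 74.2 CPM in AL>CR, a log2 fold change of 0.52 ± 0.14 (adjusted p = 0.0359). Irs1, the insulin receptor substrate, was at 20.4, 23.5 and 22.9 CPM in AL and 12.7, 16.3 and 10.9 CPM in AL>CR, without overlap (log2 fold change -0.72 ± 0.21 (adjusted p = 0.0513)). Of 3 genes of mTOR, AMPK and sirtuin signalling 2 rose, and 1 with the covariate. Prkag2, a regulatory subunit of the energy sensor AMPK, was at 31.8, 22.3 and 33.6 CPM in AL and 51.4, 49.6 and 63 CPM in AL>CR, a rise of 0.89 ± 0.17 (adjusted p = 0.00338) that also passed without pools 7 and 9, at 1.28 (adjusted p = 0.0285). Rheb, the GTPase that activates mTOR complex 1, was at 28.2, 22.9 and 25.9 CPM in AL and 50.9, 45.4 and 38.4 CPM in AL>CR, a rise of 0.81 ± 0.17 (adjusted p = 0.00638). The call of Pik3r1 was lost without any 1 pool other than pool 8 (adjusted p 0.0847 to 0.205), and that of Rheb without pool 19 (adjusted p = 0.061).

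Cholesterol synthesis, which the adult brain carries out for itself, had 3 higher and 0 lower of 8 genes (median 0.46), and all 8 had a log2 fold change of 0.38 or more. Hmgcs1, which makes HMG-CoA in the cytosol, was at 351, 296 and 251 CPM in AL and 462, 449 and 458 CPM in AL>CR. The groups did not overlap, and the rise was 0.61 ± 0.13 (adjusted p = 0.00926). Fdps was at 67.5, 73.96 and 62.04 CPM in AL and 108, 111 and 91.5 CPM in AL>CR, a rise of 0.62 ± 0.14 (adjusted p = 0.0122). Fdft1, the squalene synthase, was at 61.8, 68.2 and 59.3 CPM in AL and 91.1, 86.4 and 84.8 CPM in AL>CR, a rise of 0.47 ± 0.14 (adjusted p = 0.0478). With the covariate Hmgcs1 alone passed (adjusted p = 0.0357). Of 7 heat shock and chaperone genes 1 rose and 1 fell, and with the covariate none of the 7 passed. Cryab, a small heat shock protein, was at 31.6, 42.6 and 49.1 CPM in AL and 66.1, 64.8 and 55.97 CPM in AL>CR, a rise of 0.61 ± 0.17 (adjusted p = 0.0359). Stip1, which links HSP70 and HSP90, was at 203, 211 and 276 CPM in AL and 137, 142 and 174 CPM in AL>CR, a log2 fold change of -0.61 ± 0.14 (adjusted p = 0.0159). The call of Hmgcs1 was lost without pool 9, 19 or 20 (adjusted p 0.0557 to 0.0711), and that of Fdps without pool 9, 19 or 20 (adjusted p 0.073 to 0.103). The call of Fdft1 was lost without any 1 pool other than pool 8 (adjusted p 0.0953 to 0.206), and that of Cryab without pool 7, 19, 20 or 21 (adjusted p 0.0646 to 0.17). The call of Stip1 was lost without pool 9, 19 or 20 (adjusted p 0.114 to 0.128).

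The lists of histone acetylation genes and of DNA and histone methylation genes had lower calls only. Among all named genes 22.6% were called higher and 16.2% lower. Of 5 histone acetyltransferase and deacetylase genes, Crebbp, the acetyltransferase CBP, fell. It was at 81.01, 104.4 and 96.3 CPM in AL and 72.9, 67.01 and 48.9 CPM in AL>CR, a log2 fold change of -0.57 ± 0.16 (adjusted p = 0.0421). Of 9 genes of DNA and histone methylation 3 fell and 0 rose (median -0.46). Mll2, a histone H3 lysine methyltransferase, was at 83.2, 120.1 and 93.1 CPM in AL and 65.8, 68.1 and 66.2 CPM in AL>CR, a log2 fold change of -0.56 ± 0.15 (adjusted p = 0.0332). Kdm6a, a histone demethylase, was at 77.7, 72.5 and 77.1 CPM in AL and 57.5, 44.3 and 57.9 CPM in AL>CR, a log2 fold change of -0.51 ± 0.15 (adjusted p = 0.0434). Chd7, a chromatin remodeller, was at 47.1, 23.8 and 65.05 CPM in AL and 33.1, 20.9 and 13.8 CPM in AL>CR, with overlap and a log2 fold change of -0.99 ± 0.28 (adjusted p = 0.0439). With the covariate Crebbp (adjusted p = 0.0496) and Mll2 (adjusted p = 0.0422) passed, and without pools 7 and 9 none did. The call of Crebbp was lost without pool 8, 9, 20 or 21 (adjusted p 0.0532 to 0.21), and that of Mll2 without any 1 pool other than pool 7 (adjusted p 0.0697 to 0.124). The call of Kdm6a was lost without any 1 pool other than pool 8 (adjusted p 0.0766 to 0.264), and that of Chd7 without pool 7, 9, 20 or 21 (adjusted p 0.0838 to 0.301).

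Of the genes that the study lists as chromatin regulators changed by CR and LA, 17 were counted here. The list was chosen on these libraries and is not independent of them. In AL>CR 6 of the 17 were higher and 9 lower (median -0.51), with 4 higher and 1 lower under the covariate, 0 without pools 7 and 9, and 2 to 6 higher and 0 to 10 lower when single pools were left out. The higher genes with the smallest adjusted p are not known first as chromatin proteins. Gnas, the stimulatory G protein subunit, was at 283, 225 and 260.2 CPM in AL and 438, 424 and 556 CPM in AL>CR, a rise of 0.88 ± 0.14 (adjusted p = 0.000451), and Por, the electron donor of microsomal P450 enzymes, was at 13.5, 22.04 and 15.3 CPM in AL and 40.8, 32.6 and 29.1 CPM in AL>CR, a rise of 1.03 ± 0.21 (adjusted p = 0.00454). The pools of both genes did not overlap. Rab3b and Mt3, a vesicle GTPase and a metallothionein, are also among the 6. The 9 lower genes include the demethylase Kdm6a and the remodeller Chd7 described above.

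Of 10 genes that the study names as associated with longevity, again chosen on these libraries, 4 were higher and 5 lower (median 0.017), with 3 and 0 under the covariate and 0 without pools 7 and 9. Cox5a and Cox4i1, subunits of complex IV, rose by 0.71 ± 0.15 (adjusted p = 0.00702) and 0.59 ± 0.13 (adjusted p = 0.00721). Npm1, a nucleolar chaperone, was at 24.5, 20.01 and 18.5 CPM in AL and 38.7, 25.8 and 47.6 CPM in AL>CR and rose by 0.81 ± 0.21 (adjusted p = 0.0239). The call of Cox5a was lost without pool 21 (adjusted p = 0.0521), and that of Cox4i1 without pool 20 (adjusted p = 0.0758). The call of Npm1 was lost without pool 9, 19 or 21 (adjusted p 0.0879 to 0.176).

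MHC class II genes, which present peptides to T cells and in the brain are expressed mainly by microglia, had 4 higher and 0 lower of 5 (median 1.01). Their summed level was 64.7 to 128 CPM in AL and 135 to 203 CPM in AL>CR. RT1-Ba was at 15.1, 28.4 and 21.99 CPM in AL and 60.2, 48.05 and 37.1 CPM in AL>CR. The AL>CR pools were above the AL pools, by 1.18 ± 0.21 (adjusted p = 0.00207). RT1-Da was at 13.5, 21.2 and 12.3 CPM in AL and 38.98, 32.6 and 22.7 CPM in AL>CR, a rise of 1.04 ± 0.23 (adjusted p = 0.00969). Cd74, the invariant chain, was at 20.6, 46.7 and 25.7 CPM in AL and 64.3, 66.6 and 44.1 CPM in AL>CR, with pool 8 above pool 21, a rise of 0.94 ± 0.23 (adjusted p = 0.0188). RT1-Db1 rose by 0.82 ± 0.23 (adjusted p = 0.0448). With the covariate or without pools 7 and 9 none of the 5 passed, and pool 8 was the highest AL pool in all 5. Of 4 genes of MHC class I and interferon none passed, the smallest p being that of Ifit2, at 4.69, 8.70 and 7.18 CPM in AL and 18.7, 9.04 and 11.2 CPM in AL>CR (adjusted p = 0.0896), and of Mx2, at 9.79, 11.9 and 10.9 CPM in AL and 25.3, 12.1 and 15.99 CPM in AL>CR (adjusted p = 0.128). The call of RT1-Da was lost without pool 9, 19 or 20 (adjusted p 0.0605 to 0.0753), and that of Cd74 without pool 7, 9, 19 or 20 (adjusted p 0.0675 to 0.129). The call of RT1-Db1 was lost without pool 7, 9, 19 or 20 (adjusted p 0.152 to 0.23).

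Markers of microglia had 1 higher and 0 lower of 7 (median 0.72), with a summed level of 275 to 337 CPM in AL and 355 to 357 CPM in AL>CR. Laptm5, a lysosomal protein of immune cells, was at 9.59, 16.8 and 13.2 CPM in AL and 33.9, 29.1 and 26.5 CPM in AL>CR, without overlap, a rise of 1.20 ± 0.21 (adjusted p = 0.00175) that passed with the covariate (adjusted p = 0.00678). Of 3 markers of astrocytes 1 rose and 1 fell (median 0.042). Besides Gfap, Gjb6, a gap junction protein, was at 101, 97.7 and 98.6 CPM in AL and 49.4, 59.5 and 73.2 CPM in AL>CR, a log2 fold change of -0.71 ± 0.15 (adjusted p = 0.00691), and Aqp4, the water channel of astrocyte end-feet, was at 664, 614 and 670.4 CPM in AL and 684, 605 and 715 CPM in AL>CR (adjusted p = 0.905). Gfap was thus the only astrocyte marker with a name that rose. Of 3 markers of oligodendrocytes 2 rose (median 0.65, summed level 313 to 389 CPM in AL and 417 to 607 CPM in AL>CR). Mog, a myelin surface protein, was at 89.6, 100.1 and 90.3 CPM in AL and 165, 156 and 116 CPM in AL>CR, a rise of 0.65 ± 0.15 (adjusted p = 0.0119). Opalin was at 101, 125 and 97.2 CPM in AL and 211, 169.7 and 130.2 CPM in AL>CR, a rise of 0.67 ± 0.16 (adjusted p = 0.0191). Neither passed with the covariate (adjusted p = 0.0569 and 0.528). The call of Gjb6 was lost without pool 19 or 20 (adjusted p 0.0537 to 0.0753), and that of Mog without pool 9, 19 or 20 (adjusted p 0.0607 to 0.104). The call of Opalin was lost without pool 7, 9, 19 or 20 (adjusted p 0.0534 to 0.182).

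Of 3 markers of cortical excitatory neurons 2 rose (median 0.81). Nrgn was at 64.7, 97.2 and 66.4 CPM in AL and 137, 146 and 135 CPM in AL>CR, a rise of 0.88 ± 0.16 (adjusted p = 0.00165), and Neurod6 was at 39.8, 31.9 and 30.1 CPM in AL and 55.7, 55.1 and 68.4 CPM in AL>CR, a rise of 0.81 ± 0.16 (adjusted p = 0.00427). With the covariate neither passed (adjusted p = 0.166 and 0.327). Of 6 markers of cortical interneurons 3 rose and 2 fell (median 0.46). Npy, a neuropeptide, was at 7.75, 8.70 and 12.7 CPM in AL and 17.5, 24.7 and 18.9 CPM in AL>CR, a rise of 1.07 ± 0.24 (adjusted p = 0.0106). Sst, somatostatin, was at 39.8, 64.4 and 40.05 CPM in AL and 77.95, 91.7 and 83.5 CPM in AL>CR, a rise of 0.82 ± 0.17 (adjusted p = 0.00688). Reln, the secreted protein reelin, which cerebellar granule cells also make, was at 314, 181 and 330.3 CPM in AL and 149.8, 155 and 179 CPM in AL>CR, a log2 fold change of -0.77 ± 0.17 (adjusted p = 0.00969). The third higher gene was Cck and the second lower gene Gad1. With the covariate none of the 6 passed. The call of Npy was lost without pool 7 or 20 (adjusted p 0.052 to 0.115), and that of Sst without pool 9 or 20 (adjusted p 0.0581 to 0.0637). The call of Reln was lost without pool 9, 19 or 20 (adjusted p 0.0585 to 0.0766).

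Among vascular, choroid plexus and blood genes, Slc2a1, the glucose transporter GLUT1 of the blood-brain barrier, was the only endothelial marker with a name. It was at 47.5, 58.9 and 37.97 CPM in AL and 98.5, 120.1 and 84.4 CPM in AL>CR, without overlap, a rise of 1.08 ± 0.17 (adjusted p = 0.000525) that passed with the covariate (adjusted p = 0.000442). Tagln, of vascular smooth muscle, was at 8.77, 8.70 and 7.18 CPM in AL and 14.7, 17.6 and 14.7 CPM in AL>CR, a rise of 0.94 ± 0.24 (adjusted p = 0.0236), and Aqp1, of the choroid plexus, was at 5.71, 8.99 and 6.02 CPM in AL and 11.1, 9.70 and 5.12 CPM in AL>CR, with overlap (adjusted p = 0.602). Of 2 blood genes Hba2 rose and albumin (Alb) did not pass, at 4.49, 4.35 and 3.47 CPM in AL and 8.61, 5.07 and 9.59 CPM in AL>CR (adjusted p = 0.155). The call of Tagln was lost without pool 9, 19, 20 or 21 (adjusted p 0.0559 to 0.147).

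Markers of other brain regions differed between libraries. All 9 cerebellar markers with a name were lower in AL>CR (median -2.90), with a summed level of 279 to 2032 CPM in AL and 256 to 309 CPM in AL>CR. With the covariate none passed and the median was -0.012, and without pools 7 and 9 the median was 0.057. The covariate is the mean of these same 9 genes, and pools 7 and 9 were set apart by it. Neither fit is therefore a test of these markers. Gabra6, a GABA receptor subunit of cerebellar granule cells, was at 592, 0.290 and 531 CPM in AL and 9.87, 0.441 and 0 CPM in AL>CR, and Fat2, a cadherin of the same cells, was at 288, 1.74 and 382 CPM in AL and 5.82, 2.20 and 1.28 CPM in AL>CR. Pool 8 was near 0 in both, like the AL>CR pools, so the groups overlapped. The log2 fold changes were -6.72 ± 1.09 (adjusted p = 0.000683) and -6.12 ± 0.93 (adjusted p = 0.000344), and without pools 7 and 9 they were 3.46 (adjusted p = 0.893) and 0.85 (adjusted p = 0.961), with the sign turned. Cbln1, a synaptic organizer of granule cells, was at 95.3, 8.12 and 88.2 CPM in AL and 8.86, 6.83 and 9.27 CPM in AL>CR (log2 fold change -2.96 ± 0.50 (adjusted p = 0.000912)), and Car8, of Purkinje cells, was at 218, 17.4 and 164 CPM in AL and 17.5, 19.6 and 11.2 CPM in AL>CR (log2 fold change -3.03 ± 0.49 (adjusted p = 0.00067)). When single pools were left out 5 to 9 of the 9 passed, with 5 without pool 20. The part of cerebellar RNA in the other results was not tested beyond the covariate fit and the fit without pools 7 and 9.

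Thalamic markers were lower in AL>CR in all 4 of 4 genes (median -1.30), with a summed level of 142 to 214 CPM in AL and 61.5 to 92.9 CPM in AL>CR. None passed with the covariate, whose score includes Calb2, and without pools 7 and 9 the median was -1.48. Besides Slc17a6, Tcf7l2, a transcription factor of thalamic neurons, was at 19.6, 29.9 and 30.8 CPM in AL and 12.7, 7.93 and 11.5 CPM in AL>CR. Here pool 8 was close to pool 9 and the groups did not overlap, with a log2 fold change of -1.32 ± 0.23 (adjusted p = 0.00165). Prkcd, protein kinase C delta, was at 23.9, 79.8 and 67.1 CPM in AL and 28.4, 21.2 and 23.03 CPM in AL>CR. Pool 7 lay among the AL>CR pools, and the log2 fold change was -1.22 ± 0.28 (adjusted p = 0.014). Calb2, which is also a cerebellar marker, was at 43.3, 19.7 and 41.4 CPM in AL and 21.01, 9.04 and 10.6 CPM in AL>CR, a log2 fold change of -1.37 ± 0.28 (adjusted p = 0.00618). Of 2 striatal markers, Penk rose and Pde10a fell, and with the covariate neither passed. Penk, proenkephalin, was at 47.1, 58.9 and 69.5 CPM in AL and 88.3, 98.3 and 77.4 CPM in AL>CR, a rise of 0.60 ± 0.16 (adjusted p = 0.0294). Pde10a, a phosphodiesterase, was at 48.2, 111 and 93.5 CPM in AL and 44.8, 52.2 and 52.5 CPM in AL>CR, with overlap, a log2 fold change of -0.75 ± 0.21 (adjusted p = 0.0439). The part that dissection had in these values was not tested. The call of Prkcd was lost without pool 9, 20 or 21 (adjusted p 0.062 to 0.0956), and that of Calb2 without pool 20 (adjusted p = 0.0686). The call of Penk was lost without pool 7, 19 or 20 (adjusted p 0.0979 to 0.2), and that of Pde10a without any 1 pool other than pool 7 (adjusted p 0.102 to 0.172).

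AL>CR was also compared with 3 other groups of 28 months, which share the AL>CR pools with the comparison above: rats restricted from 2 months (CR), rats that fed ad libitum with lipoic acid (AL+LA), and rats moved from restriction to ad libitum feeding at 12 months (CR>AL). Against CR, 0 of 17230 genes passed edgeR's quasi-likelihood test (0.0%), with 453 (2.63%) at an unadjusted p under 0.05, 0 by DESeq2 and 1 by edgeR's exact test. Against AL+LA 1 gene passed (0.0058%), with 738 (4.28%) at an unadjusted p under 0.05. Against CR>AL 28 genes passed (0.163%), 19 higher and 9 lower in AL>CR, with 1170 (6.79%) at an unadjusted p under 0.05. The median SE of a log2 fold change was 0.23 in these 3 comparisons and 0.24 against AL. Over the 498 genes higher than in AL, the median log2 fold change of AL>CR was 0.0046 against CR, 0.073 against AL+LA and -0.021 against CR>AL. Over the 338 lower genes it was -0.11, -0.091 and -0.090. Both sets were chosen by values of the AL>CR pools themselves.

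Gfap, at 140.4, 203 and 171 CPM in AL and 534, 522 and 469 CPM in AL>CR, was at 390.3, 696 and 484 CPM in CR, 693, 632 and 862 CPM in AL+LA and 665, 607 and 647 CPM in CR>AL. The 3 AL pools were below all 12 others. Against CR the log2 fold change was -0.048 (95% interval -0.33 to 0.24). Ywhah was at 957, 935 and 891 CPM in CR, 889.8, 939 and 932 CPM in AL+LA and 950.4, 1038 and 881 CPM in CR>AL, again all above the AL pools, and -0.09 (95% interval -0.29 to 0.11) against CR. For Rpl35 the log2 fold change of AL>CR over CR was 0.074 (95% interval -0.16 to 0.30). Fam107a was at 391, 306 and 331 CPM in CR, 379, 468 and 466 CPM in AL+LA and 390.1, 337 and 249.5 CPM in CR>AL, all below the AL pools, and 0.017 (95% interval -0.20 to 0.23) against CR. Rn28s was at 31320, 30450 and 34000 CPM in CR, 8533, 32030 and 34790 CPM in AL+LA and 22320, 15860 and 24270 CPM in CR>AL. Only AL+LA pool 34, at 8533 CPM, came near the AL pools. Slc17a6 was at 7.03, 99.4 and 62.1 CPM in CR, a wide spread within 1 group, and the log2 fold change of AL>CR over CR was -0.99 (95% interval -1.82 to -0.16). An interval that holds 0 does not show that the groups are alike.

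For the 42 nuclear respiratory chain genes the median log2 fold change of AL>CR was -0.030 against CR, 0.11 against AL+LA and -0.075 against CR>AL, with 0, 0 and 2 genes called. Their summed level was 3092, 3812 and 4042 CPM in CR, 3141, 3644 and 3224 CPM in AL+LA and 3298, 4207 and 3806 CPM in CR>AL. All 9 sums were above the highest AL sum of 2524 CPM.

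Rbm3, a cold-inducible RNA-binding protein linked to the upkeep of synapses, was higher in AL>CR than in AL+LA and CR>AL. It was at 118, 81.5 and 88.4 CPM in AL and 106, 101 and 101 CPM in AL>CR (log2 fold change 0.094 ± 0.15 (adjusted p = 0.804)), at 98.4, 101 and 90.5 CPM in CR, at 68.5, 58.9 and 56.3 CPM in AL+LA and at 50.6, 68.3 and 53.9 CPM in CR>AL. AL>CR was higher than AL+LA by 0.74 ± 0.12 (adjusted p = 0.0118), the 1 call in that comparison, and than CR>AL by 0.83 ± 0.12 (adjusted p = 0.000314). The groups fed ad libitum did not share a level, since AL pools lay with AL>CR and CR. Against CR>AL, Sars, a seryl-tRNA synthetase, was at 62.3, 67.7 and 74.8 CPM in AL>CR and 41.6, 35.5 and 42.6 CPM in CR>AL, higher by 0.78 ± 0.13 (adjusted p = 0.00263), and it was also higher than in AL, by 0.73 ± 0.16 (adjusted p = 0.0104), a call against AL that was lost without pool 9, 20 or 21 (adjusted p 0.0605 to 0.0691). ATP8, encoded by the mitochondrial genome, was at 1087, 832 and 1037 CPM and 708, 602 and 545 CPM, higher in AL>CR by 0.68 ± 0.11 (adjusted p = 0.00215). Among lower genes in that comparison with a name and without overlap, 3 had the smallest adjusted p. These were Rplp1, with a log2 fold change of -0.69 ± 0.12 (adjusted p = 0.00234), Alb, with -1.25 ± 0.27 (adjusted p = 0.0339), and Srrm2, a splicing factor, with -0.47 ± 0.10 (adjusted p = 0.0409). The counts in the comparison with CR>AL ranged from 13 without pool 20 to 43 without pool 21, with 15 without pool 25, and in a fit of all 13 groups 2 genes passed. Those 2 were lower genes, and none of the 6 calls named here for the comparison with CR>AL passed in that fit, in the fit of the 8 groups of 28 months or with the covariate, with adjusted p of 0.083, 0.056 and 0.055 for Rbm3. When single pools were left out, the calls of Rbm3, Sars and ATP8 against CR>AL stayed, that of Rplp1 was lost without pool 25 (adjusted p = 0.071), that of Alb without pool 20 or 26 and that of Srrm2 without pool 20, 21, 25 or 27. The call of Rbm3 against AL+LA was lost without pool 20, 35 or 36 (adjusted p 0.0685 to 0.127) and in the 3 fits of more groups (adjusted p 0.514 to 1).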

How the data were processed

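RNA of cerebral cortex was pooled from 2 rats per library, depleted of ribosomal RNA (Ribominus) and sequenced as 75-bp forward reads on a SOLiD 5500xl. Per the study's methods and the submitters' processing notes, the authors mapped reads with Bowtie (at most 2 mismatches, -e 400, no multiply mapping reads) to rn5 with Ensembl release 71 and counted them with HTSeq. Versions of both tools are not given in the sources used here. The deposited values are whole-number read counts for each Ensembl gene, not normalized by the authors. A further 5 lines name no gene (no feature, not aligned and the like) and stayed out of library sizes and tests. In the AL>CR pools 81.3% to 82.6% of aligned reads were on no feature or ambiguous between genes, together called reads on no gene here. Leaving out multiply mapping reads lowers genes with near-identical copies.

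Genes with at least 1 CPM in at least 3 of 39 libraries (17230 of 26123) were compared with edgeR 4.0.16 in R 4.3.3 (TMM, glmQLFit, glmQLFTest, two-sided), in the 6 libraries of each pair of groups. P-values were Benjamini-Hochberg adjusted over all genes tested, and genes under 0.05 were called. The SE is the log2 fold change divided by the square root of F, and intervals span 1.96 SE on each side. The mean of log2(CPM + 1) over named cerebellar markers was the covariate in a fit of all 13 groups. Between 3109488 and 4876839 reads on genes per library limit what genes of low level can show. The fit was tested on simulated data.

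Gene names came from the study's supplementary tables, which pair 1666 of the genes tested with a symbol. Of 780 genes in 43 lists, 262 had an identifier. List members were counted as identifiers, so a name with several identifiers counts more than once. Named are, ranked by adjusted p, at most 12 genes up and 12 down whose pools did not overlap, at most 4 called members per list, at most 3 per direction in each further comparison, and the receptors, transferases and thioredoxin genes that the study names. Some genes that this rule takes are not reported here. Further list members named in passing were chosen after their values were seen. The comparison, the lists and their members were chosen with earlier results of these data known. Alternatives were the exact test, DESeq2 1.42.0, RLE factors, other filters, joint fits, the covariate, ribosomal RNA left out, and single pools left out. Other ages and diets entered only the joint fits and, for CR, AL+LA and CR>AL at 28 months, the further comparisons.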

Additional observations from a re-analysis of the deposited data

How the results depend on the processing

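The comparison of AL>CR with AL gave 836 genes, and 1021 by edgeR's exact test, 669 by DESeq2, 838 with RLE factors, 847 with at least 10 counts in every library, 832 with CPM computed on all lines, 822 in a fit of all 13 groups and 835 without ribosomal RNA. It moved by over 1.5 times to 1261 with no filter on low counts, 1285 in a fit of the 8 groups of 28 months, 429 with the cerebellar score as a covariate and 88 without AL pools 7 and 9. Single pools left out gave 372 to 1415 genes. The median log2 fold change of all genes stayed between -0.023 and 0.024. The cause of each of these shifts was not tested.

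Against CR, the count of 0 became 1 by the exact test and 23 with no filter, and 0 to 7 with single pools left out. Against AL+LA, the count of 1 became 7 by the exact test, 2 by DESeq2, 3 with RLE factors, 36 with no filter, 3 without ribosomal RNA, and 0 in the fit of all 13 groups, in that of the 8 groups of 28 months and with the covariate. Single pools left out gave 0 to 12. Against CR>AL, the count of 28 became 50 by the exact test, 106 with no filter, and 2 in the fit of all 13 groups, in that of the 8 groups and with the covariate. Single pools left out gave 13 to 43.

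Of the 112 genes that the naming rule takes and that passed against AL, 112 passed by the exact test, 101 by DESeq2, 55 with the covariate and 16 without pools 7 and 9, and 69 to 107 when single pools were left out. The sign turned in 4 of them. With the covariate, a score that includes these genes themselves, the log2 fold change became 0.00092 in Cbln1, 0.83 in Gabra6 and 0.28 in Fat2. Without pools 7 and 9 it became 0.024 in Cbln1, 3.46 in Gabra6, 0.85 in Fat2 and 0.0084 in Gria4. The share of aligned reads on no gene differed by -0.53 to 0.61 percentage points when single pools were left out, with -0.53 without pool 9 and -0.15 without pool 21, and the share not aligned by 7.06 to 9.93. No paired analysis was possible because the pool numbers run from 1 to 39 and no number occurs in both groups.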
